A study of Rattus norvegicus with 6 samples.

Results

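The imprinted Dlk1-Dio3 region encodes a large group of miRNAs, and 7 of them were found in 3 or more of 6 small RNA libraries from vesicles of rat bone marrow stromal cells. Members were the listed names among 30 miRNA numbers of the region, from either arm of the hairpin, and they are 7 of 311 distinct mature sequences in the table. The vesicles (exosomes), membrane-bound particles that cells release, came from cultured bone marrow mesenchymal stromal cells (BMSCs), adherent marrow cells that can form bone. The cells were flushed from the tibias and femurs of male SD rats aged 4 weeks. The hypoxia libraries (3) came from cells held at 1% oxygen and the normoxia libraries (3) from cells held at 21% oxygen. Both groups had 5% carbon dioxide and medium with 10% fetal bovine serum, and the labels name no further treatment. Since nothing in the labels ties the libraries to separate animals or separate cultures, the spread behind each p-value may be a technical one.

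In the Dlk1-Dio3 region the protein-coding genes Dlk1, Rtl1 and Dio3 are expressed from the paternal chromosome, and the long noncoding RNA Meg3, small nucleolar RNAs and the miRNAs from the maternal one. The miRNAs are processed from long maternal transcripts and lie in an upstream group around Rtl1 and a larger downstream group that begins with miR-379. They are known for high levels in embryo, placenta and brain and for lower levels in most adult tissues. A miRNA selects its target mRNAs mainly through its seed, the short stretch near the 5′ end.

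The 7 members are shown so that their seeds can be compared with each other and with the rest of the table. They are given 5′ to 3′ in the order of the chromosome, with the seed (bases 2 to 8) in capitals, as the deposited table lists them and as RefSeq has them for the rat build GRCr8 (the rat prefix rno is left out further on).
rno-miR-493-5p: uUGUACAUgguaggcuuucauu
rno-miR-433-3p: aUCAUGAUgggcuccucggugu
rno-miR-127-3p: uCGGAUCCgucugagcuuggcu
rno-miR-379-5p: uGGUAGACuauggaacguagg
rno-miR-543-3p: aAACAUUCgcggugcacuucu
rno-miR-134-5p: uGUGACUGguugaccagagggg
rno-miR-369-3p: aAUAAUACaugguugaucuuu

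The 7 members had 7 distinct seeds, and no other listed sequence shared bases 2 to 8 with any of them. No other listed sequence came closer than 5 mismatches to a member when both were aligned at the 5′ end and a difference in length was counted in. The closest pair was miR-543-3p and its neighbour miR-495, 1.63 kb downstream. For miR-543-3p, bases 3 to 8 (ACAUUC) are bases 2 to 7 of miR-181a-5p and miR-181b-5p, which were listed as well. For miR-134-5p, bases 3 to 8 (UGACUG) are bases 2 to 7 of 1 listed sequence that has no annotated name. The members held 23.8 to 59.1% G and C, lowest in miR-369-3p and highest in miR-127-3p and miR-134-5p. The tetramers GGAG and CCCU, both known from work on the sorting of human miRNAs into exosomes, were searched on the mature strand. They occurred in none of the 7 members and in 7.61% and 7.11% of the 197 annotated mature sequences.

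All members lie on the plus strand of chromosome 6 in GRCr8, where miR-493-5p spans chr6:134314744-134314765 and miR-369-3p chr6:134579507-134579527. The deposited files were made with rn6, and no coordinate was converted. The members cover 264.8 kb in 2 groups. The upstream group of 3 members, miR-493-5p, miR-433-3p and miR-127-3p, covers 13.8 kb. The hairpins of miR-433 and miR-127 lie within the bounds of Rtl1, and both are known as antisense miRNAs of this gene. The downstream group of 4 members, miR-379-5p, miR-543-3p, miR-134-5p and miR-369-3p, covers 36.1 kb and begins 214.9 kb after miR-127-3p. Only 13 of the 30 numbers were listed at all. RefSeq holds 55 mature sequences for these numbers, and the table lists 15 of them. None of 21 further miRNA numbers of the region was listed.

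**Figure D1:**
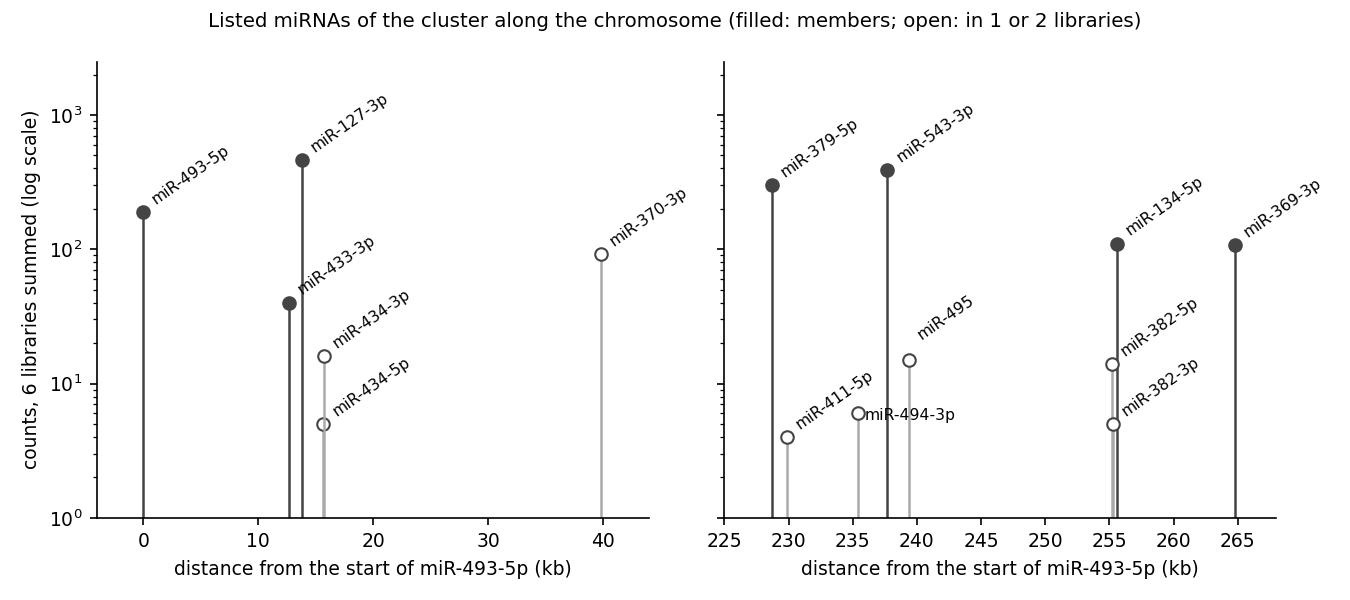
Counts summed over the 6 libraries (vertical, log scale) for each listed miRNA of the cluster against its distance in kb from the start of miR-493-5p (horizontal, shown in 2 windows). Filled points are the 7 members and open points the 8 names found in 1 or 2 libraries; both the upstream and the downstream group hold members.

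The cluster was a small part of the vesicle miRNAs. Its members had 1595 of 1052784 counts over the 6 libraries, or 0.152%, and miR-127-3p, miR-543-3p and miR-379-5p held 72.1% of these. As a share of the library, the members summed to 0.509%, 0.0850% and 0.0491% in hypoxia replicates 1 to 3, and to 0.247%, 0.0740% and 0.145% in normoxia replicates 1 to 3. Hypoxia replicate 1 was highest, and normoxia lay between it and the lowest hypoxia library. The 95% exact binomial interval was 0.469 to 0.551% for hypoxia replicate 1 and 0.218 to 0.278% for normoxia replicate 1. Such intervals, here and below, hold only the error of counting reads within 1 library and not the spread between libraries. Because PCR copies of a molecule could not be recognised, they may be too narrow for counts of molecules. The mean share was 0.214 ± 0.256% in hypoxia libraries and 0.155 ± 0.0869% in normoxia libraries (SD, n = 3 each), so the groups differed by less than their spread. Without hypoxia replicate 1 the hypoxia mean was 0.0670%, below that of normoxia.

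Total counts ran from 106954 to 248542, and the 2 shallowest libraries, normoxia replicate 1 and hypoxia replicate 1, had the 2 highest member shares. Hypoxia replicate 1 stood apart in other ways too: it listed 85 distinct sequences against 129 to 183 in the others, and 15.4% of its counts were miR-320-3p, where no other library exceeded 2.92%. Mesenchymal markers held a large summed share of every library, 33.9 to 42.7% under hypoxia and 30.6 to 45.6% under normoxia. Of these markers 11 of 11 were listed, where a marker of any list counts as listed if at least 1 library has it. Of 8 neural markers 4 were listed, without miR-124. Their summed share was 0.0877 to 0.425% under hypoxia and 0.123 to 0.308% under normoxia, highest in hypoxia replicate 1. Within this list, miR-9a-5p had 235 counts in hypoxia replicate 1 and 35 in normoxia replicate 1. Without those counts the share was lower in hypoxia replicate 1 than in normoxia replicate 1. The striated muscle list (4 of 8) held 1.89% of hypoxia replicate 1 and at most 0.506% of any other library, and miR-133a was not listed. The single liver marker, miR-122, held 0.499 to 0.787% under hypoxia and 0.464 to 0.905% under normoxia. Blood cell (4 of 5 markers), endothelial (1 of 1) and epithelial (3 of 8) lists held at most 0.126%, 0.0964% and 0.0128% of any library. What part depth, these other sources and this library have in the member values was not tested.

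Between the oxygen groups no member was called, with a call set at an adjusted p under 0.05 in the quasi-likelihood test of edgeR (Benjamini-Hochberg adjustment). Of the 7 members 6 passed the filter on low counts and 0 of them were called, beside 0% of the 107 sequences tested in either direction, and 0 members had an unadjusted p under 0.05, beside 0.935% of all. DESeq2 and limma-voom called 0 sequences too, with 0.952% and 3.74% at an unadjusted p under 0.05 and 0 members among them. DESeq2 gave a p for 105 of the 107 sequences and none for miR-127-3p, so its count leaves that member out. Fitted values were above 0 for 1 and below 0 for 5 of the 6, with a median of -0.44, while over all tested sequences 44 were above and 63 below 0, with a median of -0.14. Standard errors of the log2 fold change ran from 1.78 to 2.40 in the members, against a median of 1.44 over all tested sequences. Changes of several fold in these miRNAs were therefore not detectable at this depth and spread. All values are relative to the other sequences of the same library. Neither the amount per vesicle nor the number of vesicles can be read from them, and a change in a member cannot be told apart from a shift in the other sequences.

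Averaged over the 6 libraries as CPM (counts scaled to the same total in every library), with these totals adjusted by TMM factors, the members ran from miR-127-3p (506), miR-543-3p (498) and miR-379-5p (345) through miR-493-5p (167), miR-369-3p (97.0) and miR-134-5p (85.2) to miR-433-3p (44.1). These levels count reads and are not divided by length, since all members have 21 or 22 bases. No step between neighbours in this order exceeded the SD of the higher of the 2 within either group. The place of miR-127-3p rests on hypoxia replicate 1: without that library, a comparison added after the data were seen, its mean was 94.2 CPM and it came sixth of 7. The order was then miR-543-3p (462), miR-379-5p (241), miR-493-5p (200.4), miR-369-3p (116), miR-134-5p (102), miR-127-3p and miR-433-3p (52.9).

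In the upstream group, miR-493-5p is known to repress the growth factor receptor IGF1R in human tumour cells. It had 0, 17 and 31 counts in hypoxia replicates 1 to 3, and 13, 56 and 71 counts in normoxia replicates 1 to 3. Normoxia replicates 2 and 3 were the highest and hypoxia replicate 1 had none. It averaged 84.0 ± 72.8 CPM in hypoxia libraries and 249.9 ± 113 CPM in normoxia libraries (SD, n = 3 each). Hypoxia over normoxia, the log2 fold change came to -1.56 (SE 1.86; 95% interval -5.57 to 2.44; adjusted p 0.998 in edgeR). It was the single member of 6 tested whose TMM-scaled groups did not overlap, as 7.48% of all tested sequences did, and they were close to touching at 126.4 CPM in hypoxia replicate 2 and 126.7 CPM in normoxia replicate 1. With library totals only, hypoxia replicate 3 had 124.7 CPM and normoxia replicate 1 had 121.5 CPM, so the groups overlapped. Without hypoxia replicate 1 the log2 fold change was -0.77 (SE 1.11).

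The antisense partner of Rtl1 that was most abundant here, miR-127-3p, is known in the mouse to cleave the Rtl1 transcript. It stood at 2566, 0 and 85.2 CPM in hypoxia replicates 1 to 3, and at 165.6, 0 and 220.1 CPM in normoxia replicates 1 to 3. Hypoxia replicate 1 alone held 82.0% of its 460 counts, with 21 in hypoxia replicate 3, 17 in normoxia replicate 1 and 45 in normoxia replicate 3. Replicate 2 of each group had none, and hypoxia replicate 3 lay among the normoxia libraries. It averaged 884 ± 1457 CPM in hypoxia libraries and 129 ± 115 CPM in normoxia libraries (SD, n = 3 each). The log2 fold change was 2.78 (SE 2.13; 95% interval -1.81 to 7.36; adjusted p 0.998 in edgeR). Without hypoxia replicate 1 the value turned to -1.42 (SE 2.74), so the positive sign rests on that library. Without hypoxia replicate 2, which had no count of this member, the log2 fold change was 3.44 (SE 1.63; 95% interval 0.138 to 6.75). This interval did not span 0, with an unadjusted p of 0.0416 and an adjusted p of 0.995 in edgeR. DESeq2 gave no p for this member.

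The neighbouring hairpin upstream gives miR-433-3p, which in mouse mesenchymal cells is known to repress Runx2, a transcription factor of osteoblasts. The mature miR-433-3p ends 1.07 kb before miR-127-3p begins. It had 0, 8 and 0 counts in hypoxia replicates 1 to 3, and 10, 0 and 22 counts in normoxia replicates 1 to 3. It was the scarcest member, was listed in 1 hypoxia and 2 normoxia libraries, and did not pass the filter. In edgeR without a filter its log2 fold change was -1.70 with an adjusted p of 0.925, and with every sequence found in 3 or more libraries it was -1.50 with an adjusted p of 0.991. Without hypoxia replicate 1 it passed the filter, and its log2 fold change was -0.93 (SE 2.93). In hypoxia replicate 1, where miR-127-3p had its highest count, miR-433-3p had none.

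**Figure D2:**
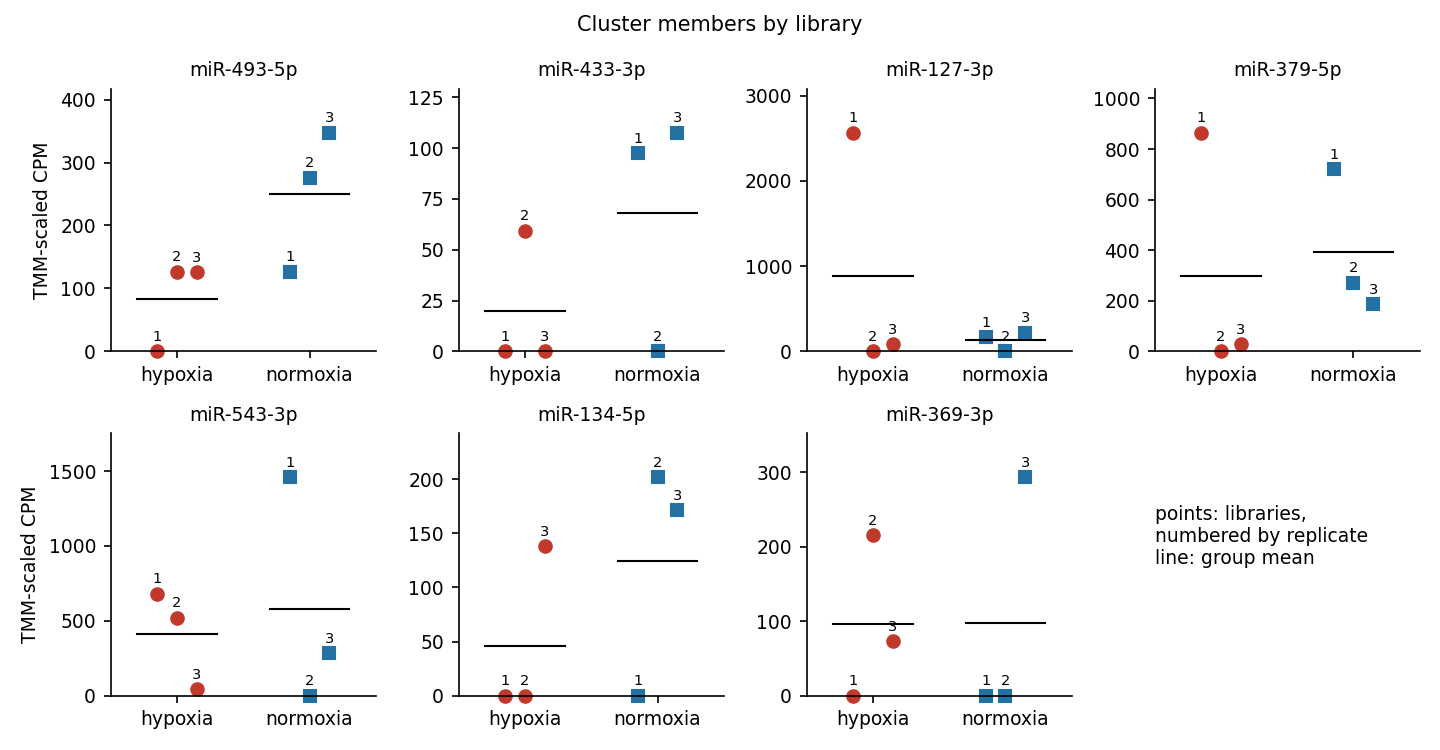
TMM-scaled CPM (vertical, from 0, with its own scale in each panel) of the 7 members in the 3 hypoxia libraries (circles) and the 3 normoxia libraries (squares), numbered by replicate, with a line at each group mean. For miR-127-3p hypoxia replicate 1 stands at 2566 CPM while the other 5 libraries have at most 220.1 CPM, and for miR-493-5p normoxia replicates 2 and 3 stand clear of hypoxia.

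In the downstream group, miR-379-5p is the first hairpin of the long transcript that also gives miR-134, which in rat neurons is induced by activity through Mef2. It stood at 864, 0 and 28.4 CPM in hypoxia replicates 1 to 3 (7 counts in replicate 3), and at 721, 271 and 186 CPM in normoxia replicates 1 to 3 (74, 55 and 38 counts). Hypoxia replicate 1 was the highest of all libraries and the other hypoxia libraries were the lowest, so normoxia lay between them. It averaged 298 ± 491 CPM in hypoxia libraries and 393 ± 288 CPM in normoxia libraries (SD, n = 3 each), and the log2 fold change was -0.40 (SE 1.85; 95% interval -4.39 to 3.60; adjusted p 0.998 in edgeR). Without hypoxia replicate 1 it was -4.47 (SE 1.56; 95% interval -7.97 to -0.97). In edgeR's model over 130 sequences its unadjusted p was then 0.0177 and its adjusted p 0.974. In that fit 1 member of 7 had an unadjusted p under 0.05, beside 3.85% of all sequences.

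The second member by level over all libraries, miR-543-3p, had 100, 70 and 11 counts in hypoxia replicates 1 to 3, and 150, 0 and 58 counts in normoxia replicates 1 to 3. The highest and the lowest value were both in normoxia. It averaged 415 ± 331 CPM in hypoxia libraries and 582 ± 775 CPM in normoxia libraries (SD, n = 3 each), and had a log2 fold change of -0.48 (SE 1.78; 95% interval -4.33 to 3.36). Without normoxia replicate 1 the value was 1.66, and without hypoxia replicate 1 it was -0.76 (SE 1.96).

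Next along the chromosome, miR-134-5p is known to repress Limk1 at dendritic spines of rat hippocampal neurons. It had 0, 0 and 34 counts in hypoxia replicates 1 to 3, and 0, 41 and 35 counts in normoxia replicates 1 to 3. The 3 deepest libraries were the ones that listed it, at similar counts. Its log2 fold change was -1.40 (SE 2.40; 95% interval -6.59 to 3.78), and without hypoxia replicate 1 it was -0.69 (SE 2.54).

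The last member, miR-369-3p, is known in human cells to bind an AU-rich element of the tumour necrosis factor mRNA. It had 0, 29 and 18 counts in hypoxia replicates 1 to 3, and 0, 0 and 60 counts in normoxia replicates 1 to 3. All of its normoxia counts were in replicate 3, and without that library no fold can be given. The log2 fold change was -0.04 (SE 2.40; 95% interval -5.21 to 5.13), and without hypoxia replicate 1 it was 0.77 (SE 2.36). The adjusted p of miR-543-3p, miR-134-5p and miR-369-3p was 0.998 each in edgeR.

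**Figure D3:**
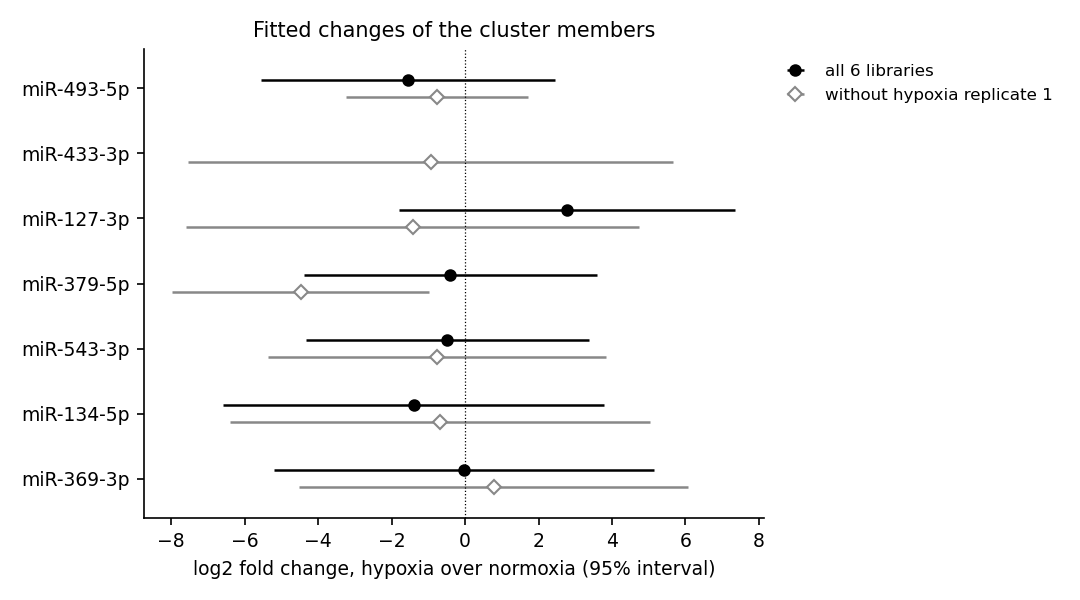
Log2 fold change, hypoxia over normoxia (horizontal), of the members with 95% intervals from edgeR, with all 6 libraries (filled circles) and without hypoxia replicate 1 (open diamonds). For miR-433-3p, which did not pass the filter with all libraries, only the diamond is shown. With all libraries every interval shown spans 0. Without hypoxia replicate 1 the miR-379-5p interval, from -7.97 to -0.97, does not, although its adjusted p in edgeR was 0.974.

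The make-up of the members varied from library to library, within each group as well. The share of member counts taken by miR-127-3p was 62.4% in hypoxia replicate 1 (95% exact binomial interval 58.4 to 66.3%), 0% in hypoxia replicate 2 and 17.2% in hypoxia replicate 3 (11.0 to 25.1%). In normoxia it was 6.44% in replicate 1 (3.80 to 10.1%), 0% in replicate 2 and 13.7% in replicate 3 (10.2 to 17.9%). For miR-543-3p the shares were 16.6%, 56.5% and 9.02% in hypoxia replicates 1 to 3, and 56.8%, 0% and 17.6% in normoxia replicates 1 to 3. It was the leading member of hypoxia replicate 2 and of normoxia replicate 1, which are in different groups. Taken as a pair, miR-127-3p made up 79.0% of its sum with miR-543-3p in hypoxia replicate 1 (75.1 to 82.6%) and 10.2% in normoxia replicate 1 (6.04 to 15.8%), while hypoxia replicate 3 (65.6%, 46.8 to 81.4%) and normoxia replicate 3 (43.7%, 33.9 to 53.8%) lay between. Hypoxia replicate 2 listed 70 counts of miR-543-3p and none of miR-127-3p. Normoxia replicate 3 was the most even library, with all 7 members and none above 21.6% of their sum.

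**Figure D4:**
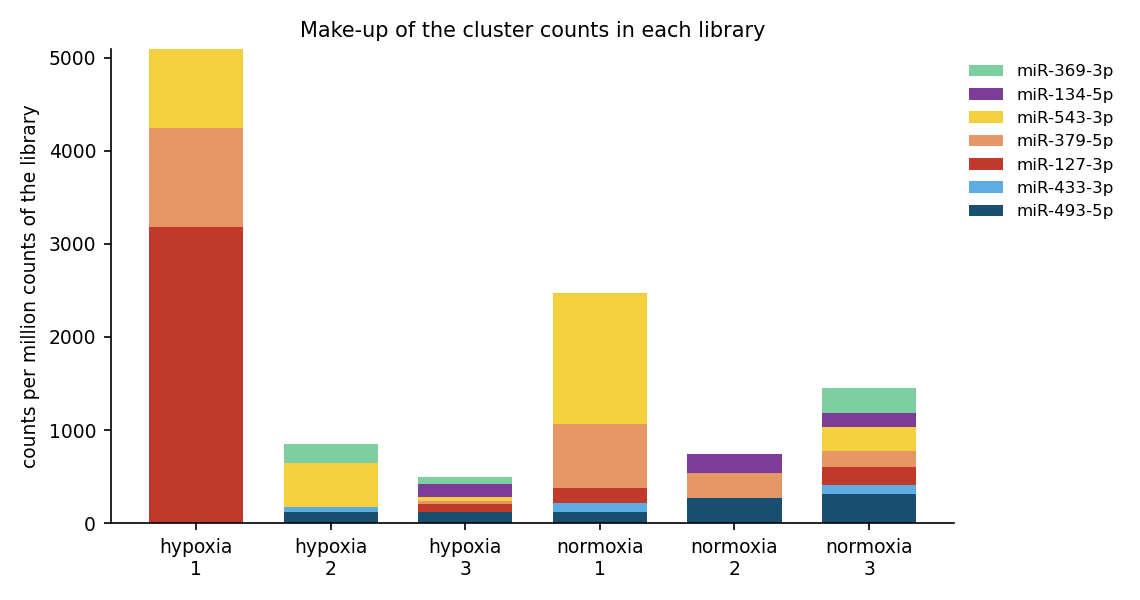
CPM of the library total for each of the 7 members (vertical, stacked from 0) in the 3 hypoxia libraries and, to their right, the 3 normoxia libraries. Hypoxia replicate 1 is the tallest bar and mostly miR-127-3p, with 3 members listed, while normoxia replicate 3 holds all 7.

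Across the 6 libraries the members fell into unlike patterns. Likeness was measured as the root mean squared difference of centred log2(CPM + 10) values, where 0 is the same pattern, and is given as a description. Among the 6 tested members the most alike were miR-134-5p and miR-493-5p (1.66), miR-369-3p and miR-493-5p (2.07) and miR-127-3p and miR-379-5p (2.21), and the least alike were miR-134-5p and miR-543-3p (4.32). Each of these 3 closest pairs joins an upstream with a downstream member, as do most of all the pairs among the tested members. The pairs at 1.66 and 2.07 share miR-493-5p. The members listed in hypoxia replicate 1 were miR-127-3p, miR-379-5p and miR-543-3p, from both groups, and the other 4 had no count there. Among the 94 other annotated sequences tested, those most like miR-127-3p were miR-9a-5p (1.62), miR-320-3p (1.73) and miR-140-3p (1.88), where the median was 3.11. From the neural list summed above, miR-9a-5p had 235, 12 and 10 counts in hypoxia replicates 1 to 3. In normoxia replicates 1 to 3 it had 35, 9 and 33 counts. It too was highest in hypoxia replicate 1, and these counts are part of the neural share there. The sequences most like miR-127-3p were picked for a pattern that peaks in hypoxia replicate 1. A peak there, and folds that fall without that library, therefore follow from the choice. The log2 fold change of miR-9a-5p was 1.66 (SE 1.72) with all libraries and -1.24 (SE 1.74) without that one. For miR-320-3p the log2 fold changes were 1.09 (SE 0.99) and -0.64 (SE 0.38), and for miR-140-3p, which kept its sign, 1.16 (SE 1.502) and 0.29 (SE 1.01).

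The number of members listed was 3, 4 and 6 in hypoxia replicates 1 to 3, and 5, 3 and 7 in normoxia replicates 1 to 3. As a share of all sequences listed this was 3.53%, 2.19% and 3.61% under hypoxia, and 3.82%, 2.33% and 4.49% under normoxia. Normoxia replicate 2, with 3 members, was the one library with no listed count below 7, where the smallest listed count of each other library was 2. None of the members was found in all 6 libraries, as 56 of the 311 sequences were.

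**Figure D5:**
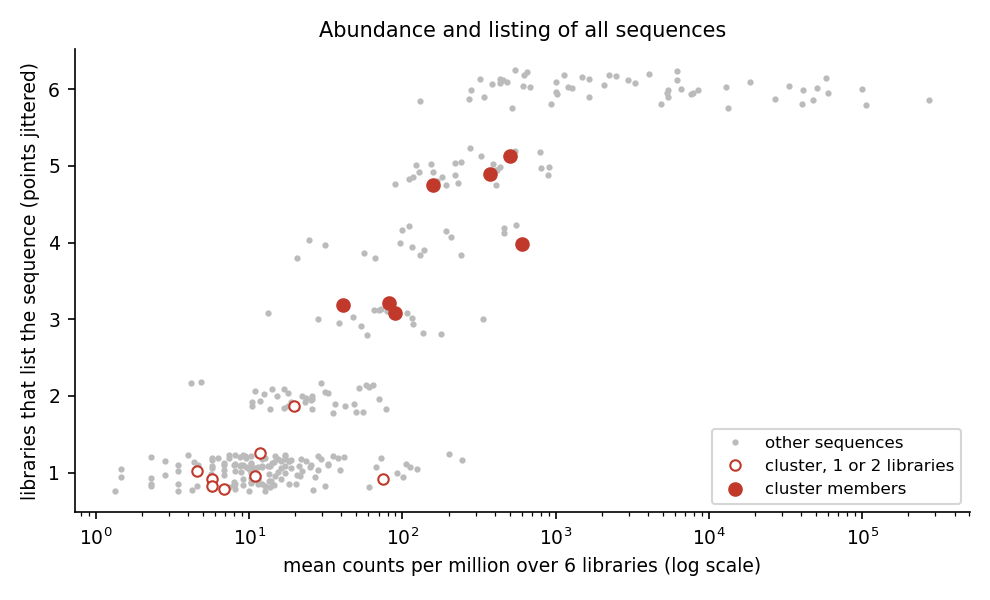
Number of libraries that list a sequence (vertical, jittered) against its mean CPM of the library totals over the 6 libraries (horizontal, log scale) for the 311 sequences. The 7 members (filled) lie at 3 to 5 libraries, and the 8 other names of the cluster (open) at 1 or 2.

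Just outside the members were 8 names found in 1 or 2 libraries. The only one found in 2 was miR-382-5p, with 5 counts in hypoxia replicate 2 and 9 in normoxia replicate 1. Neither library listed miR-134-5p, although its mature sequence begins 0.34 kb after that of miR-382-5p ends. The largest single value was 92 counts of miR-370-3p, all in normoxia replicate 2. Hypoxia replicate 2 alone listed miR-494-3p (6 counts), miR-382-3p (5), miR-434-5p (5) and miR-411-5p (4), and normoxia replicate 3 alone listed miR-434-3p (16) and miR-495 (15). The seeds of miR-411-5p (AGUAGAC) and miR-379-5p (GGUAGAC), which lie 1.12 kb apart, both end in GUAGAC. With these names included the cluster share was 0.220 ± 0.252% in hypoxia libraries and 0.177 ± 0.0702% in normoxia libraries (SD, n = 3 each), again within the spread.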

How the data were processed

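Small RNA libraries from vesicles were compared, 3 hypoxia and 3 normoxia. Per the labels' protocols, libraries were made by ligating adaptors, amplified, selected by size and read on a HiSeq instrument. The submitters' processing notes name cutadapt 1.9.3, Novoalign 3.02.12 and rn6, with no role stated. How tags were counted and filtered, and against which annotation, is not stated in the labels or headers. The authors deposited raw tag counts per mature miRNA, per the file headers. They also deposited normalized whole-number values, treated as a score because the method is not stated; these are near the count times 1.04 to 2.34 by library. Blank cells were read as 0. Since counts of 1 are missing from the table, small values may have been left out of it, and blanks get no upper limit.

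The 353 rows were reduced to 311 distinct sequences, since repeated rows held identical values. Members were names of 30 set miRNA numbers with a count in 3 or more libraries, and every one is named. Members, lists and tests were chosen with earlier results of these data known. The test was that of edgeR 4.0.16 (R 4.3.3; filterByExpr with minimum count 10 and total 15, TMM, robust glmQLFit, glmQLFTest, Benjamini-Hochberg over 107 sequences), and the scripts were tested on simulated data. SEs were derived from the F statistic. The common biological coefficient of variation was 1.07 and TMM factors ran from 0.904 to 1.25. Alternatives used DESeq2 1.42.0 and limma 3.58.1, and exact binomial intervals scipy 1.17.1. All 15 listed names matched a RefSeq mature sequence (GRCr8). Likeness was computed for the member with the highest mean over all 6 libraries.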

Additional observations from a re-analysis of the deposited data

How the results depend on the processing

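At an adjusted p under 0.05, 0 sequences were called higher and 0 lower with all libraries and under each of the 16 alternatives run; the smallest adjusted p of any sequence was 0.0635, without normoxia replicate 1. Of 94 alternative values of the 6 tested members, 18 had the opposite sign, and no member passed the test before or after. miR-493-5p (-2.75 to -0.77) and miR-134-5p (-2.64 to -0.69) kept their sign wherever a fold could be given. miR-127-3p reversed without hypoxia replicate 1 (-1.42) and was otherwise 0.99 to 3.54. miR-379-5p ran from -4.47, without hypoxia replicate 1, to 0.57, and reversed to 0.28 without hypoxia replicate 2, 0.24 without hypoxia replicate 3 and 0.57 without normoxia replicate 1. miR-543-3p had -0.98 without normoxia replicate 2 and reversed to 0.18 without hypoxia replicate 3, 1.66 without normoxia replicate 1, 0.80 in limma-voom, and 1.25 and 0.39 in the authors' normalized table with pseudocounts of 1 and 10. miR-369-3p, near 0, was 0.22 with upper-quartile factors, 0.026 with library totals, 0.19 with a count in 3 or more libraries, 0.77, -1.28 and 0.30 without hypoxia replicates 1, 2 and 3, 1.35 in limma-voom, and 1.33 and 0.41 in the authors' normalized table. The cause was not tested. No fold was given for miR-134-5p without hypoxia replicate 3 or for miR-369-3p without normoxia replicate 3, since a group then has no count.

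The labels number replicates alike in both groups but do not say that equal numbers share an animal or day. Equally numbered libraries were therefore not taken as pairs. Their deviations correlated at 0.228, 0.0313 and 0.124, against -0.299 to 0.201 for unequal numbers. So few values cannot decide whether pairs exist. With the replicate block 0 sequences were called, and miR-369-3p had 1.61, miR-127-3p 1.12 and miR-379-5p -2.76. Hypoxia replicate 1 did correlate best with normoxia replicate 1, but hypoxia replicate 3 correlated best with normoxia replicate 2 (0.201). The mean member share ranged from 0.0670 to 0.297% under hypoxia and from 0.109 to 0.196% under normoxia with 1 library left out. The median log2 fold change of all tested sequences was -0.14 with TMM, -0.02 with upper-quartile factors and 0.15 without hypoxia replicate 1. Counts of the members were mostly low and their spread between libraries was wide, and the part of each in these shifts was not tested.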
